A study of Caenorhabditis elegans with 6 samples.

Results

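The genes described here encode the proteins of the cytosolic ribosome, and they were chosen by symbol, as every *C. elegans* gene named *rpl-* (large subunit) or *rps-* (small subunit) together with the genes of the P-stalk. By current names these are 82 genes, of which 48 are *rpl-*, 30 are *rps-* and 4 belong to the P-stalk (*rplp-0*, *rplp-1*, *rplp-2.1* and *rplp-2.2*). The rule gave 3 older P-stalk names, *rla-0*, *rla-1* and *rla-2*, and since the gene table does not say which *rplp-2* gene was *rla-2*, both were taken. The arrays carried a probe for 79 of them, all of which passed the signal filter, as did 14764 of the 18873 genes on the array. A single spot each of *rpl-37A* (first *ets-4(ok165)* array) and *rps-23* (second *ets-4(uz1)* array) was flagged as an outlier and left out. The genes *rpl-13A*, *rpl-41.1* and *rpl-41.2* were not analysed here.

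Ribosomes translate mRNA into protein. The 40S subunit, built from *rps-* proteins around the small rRNA, decodes the message, and the 60S subunit, built from *rpl-* proteins around the large rRNAs, joins amino acids together. The P-stalk is an acidic arm of the 60S subunit that recruits the elongation factors. Ribosomal protein genes are expressed in every cell and at very high levels, and in growing larvae their transcripts are among the most abundant mRNAs. Translation rate is also a known influence on the life span of worms, the trait for which the *ets-4* mutants were studied.

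Total RNA came from whole late L4 larvae of 3 strains grown on OP50 bacteria at 20 °C: *ets-4(uz1)*, *ets-4(ok165)* and wild-type N2. Both mutant alleles are deletions in *ets-4*, an ETS-family transcription factor gene. *ets-4(uz1)* lacks most of the ETS domain and keeps the sequence of the PNT domain, and *ets-4(ok165)* lacks both. Each strain was set against N2 on 3 two-color Agilent 22K arrays, described in the methods as independent repeats, with mutant cDNA in Cy5 and wild-type cDNA in Cy3 on every array. No dye swap was made, so a dye effect on a gene and its change in a mutant cannot be told apart, except in the difference between the mutant strains. All values below are log2 ratios of mutant over wild type unless stated otherwise. In whole worms, fewer cells of a type and less RNA per cell cannot be told apart.

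As a check of which channel held the mutant, the *ets-4* probe had log2 ratios of −3.18, −3.08 and −2.84 on the *ets-4(uz1)* arrays and −3.59, −2.80 and −2.72 on the *ets-4(ok165)* arrays. Being low in both strains, it cannot tell *ets-4(uz1)* arrays from *ets-4(ok165)* arrays. Of 14764 genes, limma called 522 (3.54%) in *ets-4(uz1)* at a Benjamini-Hochberg adjusted p under 0.05, 14 (0.0948%) in *ets-4(ok165)* and 24 (0.163%) between the mutant strains. The first array of each strain was read by 1 scan and the other arrays by 2 scans at different detector settings, which were joined for bright spots.

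The ribosomal protein genes showed no change that passed the test in either mutant. Their mean ratios lay close to the wild-type level, from −0.38 to 0.54 in *ets-4(uz1)* and from −0.69 to 0.38 in *ets-4(ok165)* (means of 3 arrays). In *ets-4(uz1)* larvae the median over the 79 genes was 0.13 against 0.03 over all genes kept, but it differed with saturation on the first arrays. The 29 genes saturated in both channels on both first arrays had a median of 0.21 with all 29 above 0, each mean including a first value fixed near 0.20. On *ets-4(uz1)* arrays 2 and 3, where they were unsaturated, 26 of 28 and 22 of 29 were above 0. The 26 genes never saturated had a median of −0.09 with 6 above 0, while 15 were above 0 on each of arrays 2 and 3. In *ets-4(ok165)* larvae the median was −0.05 against −0.02 over all genes kept. The sign of that median turned positive with saturated spots left out. It also did so with other normalizations that kept them, at 0.04 after normexp and loess and 0.09 after median centring.

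The brightness of these transcripts set a limit on the first arrays. All 79 probes were well above background in both channels on all 6 arrays, and on the first arrays many were also at the top of the scanner's range. On the first *ets-4(uz1)* array 31 of the 79 probes were saturated in both channels, 3 in the mutant channel only and 3 in the wild-type channel only, which left 42 unsaturated. On the first *ets-4(ok165)* array 36 were saturated in both channels and 17 in the mutant channel only, which left 26. No probe of the list was saturated on the other 4 arrays.

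A spot saturated in both channels carried almost the same ratio whatever its gene. On the first *ets-4(uz1)* array these 31 spots had log2 ratios between 0.19 and 0.23, and on the first *ets-4(ok165)* array the 36 spots all had −0.34 or −0.33. The mean raw brightness of those spots lay between 64813 and 65243 in the mutant channel and between 63759 and 65233 in the wild-type channel of the first *ets-4(uz1)* array. The probes of the 79 genes made up much of this class, with 31 of the 55 such spots on the first *ets-4(uz1)* array and 36 of the 72 on the first *ets-4(ok165)* array. For 29 genes both channels were saturated on both first arrays, so that only 4 of their 6 values could vary, and 26 genes were unsaturated on both. Where only the mutant channel was saturated, the ratio is a lower limit.

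**Figure D1:**
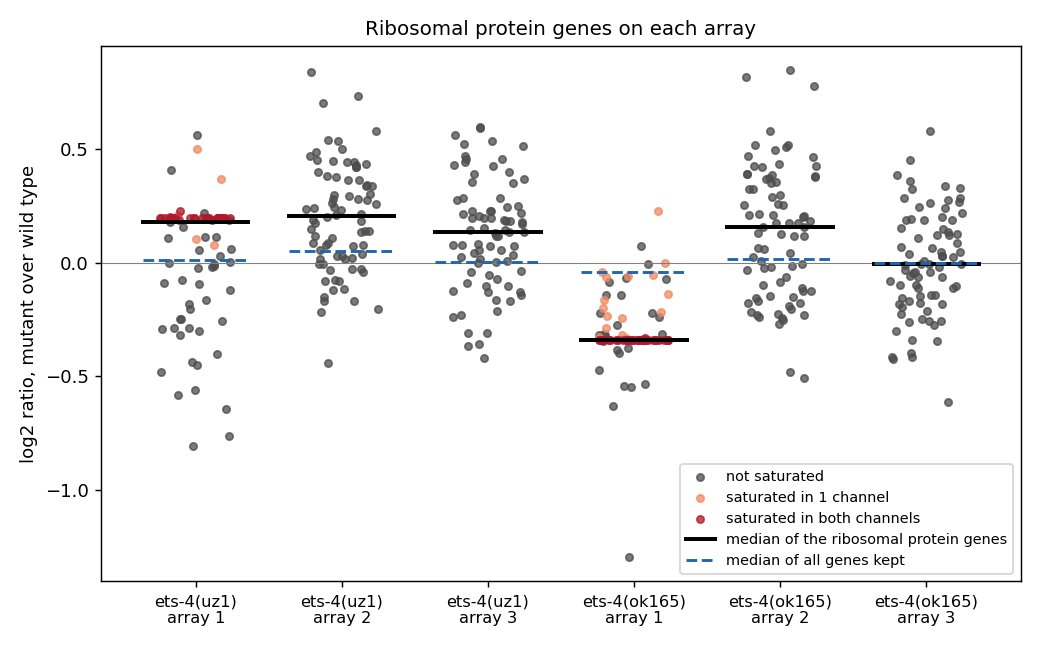
The log2 ratio of mutant over wild type (vertical axis) of the 79 ribosomal protein genes on each of the 6 arrays, with points colored by saturation on that array; black lines mark the median of these genes and dashed lines the median of all genes kept. Spots saturated in both channels form a flat row at 0.20 on the first *ets-4(uz1)* array and at −0.34 on the first *ets-4(ok165)* array, while the other arrays show a spread around medians of −0.01 to 0.21.

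On the 3 *ets-4(uz1)* arrays the median of the 79 genes was 0.18, 0.21 and 0.14, and on the 3 *ets-4(ok165)* arrays it was −0.34, 0.16 and −0.01. All genes kept had medians of 0.01, 0.05 and 0.00 on the *ets-4(uz1)* arrays and of −0.04, 0.02 and 0.00 on the *ets-4(ok165)* arrays. Both first medians lay at or near the fixed ratio of spots saturated in both channels, so the spread of the 3 medians in a strain is partly that of the scanner's ceiling and is not read as replicate error.

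The low first *ets-4(ok165)* array was not made of saturated spots alone. Its 25 unsaturated and unflagged ribosomal protein spots had a median of −0.32, and 24 of these lay below 0, beside a median of −0.20 for the 17 spots saturated in the mutant channel only. On the first *ets-4(uz1)* array the 42 unsaturated spots had a median of −0.11, with 13 above 0 and 29 below, whereas all 31 spots saturated in both channels were above 0. Left out of the fit, the saturated spots took the median of the 79 genes to 0.10 in *ets-4(uz1)* and brought it to 0.05 in *ets-4(ok165)*. Without its whole first array the *ets-4(ok165)* median was 0.08.

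**Figure D2:**
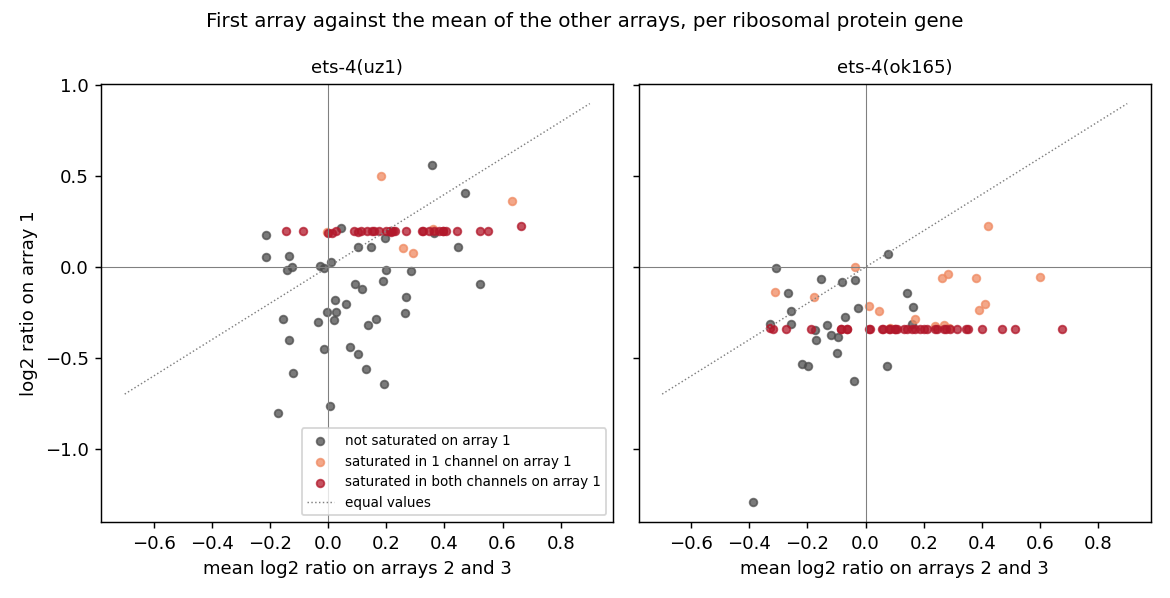
The log2 ratio on array 1 (vertical axis) against the mean log2 ratio on arrays 2 and 3 (horizontal axis) for each of the 79 ribosomal protein genes, *ets-4(uz1)* left and *ets-4(ok165)* right, colored by saturation on array 1. Genes saturated in both channels lie on a horizontal line at 0.20 in *ets-4(uz1)* and at −0.34 in *ets-4(ok165)* over a wide range of values on the later arrays.

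The 26 genes unsaturated on both first arrays and the 29 saturated in both channels on both differed on the later arrays too, where neither was saturated. On *ets-4(uz1)* arrays 2 and 3 the 29 bright genes had medians of 0.31 and 0.17, against 0.02 and 0.05 for the 26 others. On *ets-4(ok165)* arrays 2 and 3 the 29 had medians of 0.25 and 0.05, against −0.10 and −0.17 for the 26. The brighter class was higher in both strains, and 15 of the 26 others were above 0 on each of these *ets-4(uz1)* arrays. Most probes of the list were read from the less sensitive scan in both channels on arrays 2 and 3, between 69 and 72 of 79 per array, and 3 to 5 per array in 1 channel only. The part of these scanner settings in the ratios was not tested beyond leaving out the spots read differently in their 2 channels, which gave a median of 0.13 in *ets-4(uz1)* and one of −0.05 in *ets-4(ok165)*.

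Within a strain the genes kept part of their order between arrays. Across the genes with a value on both arrays, which were measured on the same arrays, the log2 ratios of *ets-4(uz1)* arrays 2 and 3 correlated at r = 0.39 (Spearman's rho 0.42, n = 78), beside r = 0.40 across all genes kept. Those of *ets-4(ok165)* arrays 2 and 3 correlated at r = 0.68 (rho 0.69, n = 79), beside r = 0.16 across all genes kept. Arrays 2 and 3 of a strain shared a slide that held only that strain, and were scanned at different times. Genes are not independent replicates, and these are descriptions of the arrays. Across the genes unsaturated on both arrays compared, the first *ets-4(uz1)* array correlated at 0.49 and 0.05 with arrays 2 and 3 (n = 42), and the first *ets-4(ok165)* array at 0.19 and 0.37 (n = 25).

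In *ets-4(uz1)* larvae 35 of the 78 genes with all 3 values had ratios above 0 on all 3 arrays and 6 had ratios below 0 on all 3. That is 44.9% and 7.69%, beside 20.5% and 19.4% of all genes. On arrays 2 and 3 alone, where nothing was saturated, 50 genes (64.1%) were above 0 on both arrays and 10 (12.8%) below on both, beside 29.5% and 25.5% of all genes. In *ets-4(ok165)* larvae 1 of 78 genes (1.28%), *rpl-11.2*, was above 0 on all 3 arrays and 22 (28.2%) were below, beside 14.8% and 15.1% of all genes. On *ets-4(ok165)* arrays 2 and 3 alone the balance was the other way, with 31 genes (39.2%) above 0 and 23 (29.1%) below, beside 24.7% and 23.2% of all genes. More genes were thus above 0 than below in *ets-4(uz1)* with and without its first array, and more were below 0 in *ets-4(ok165)* only with its first array.

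By limma, 0 of the 79 genes passed an adjusted p of 0.05 in *ets-4(uz1)*, where 3.54% of all genes did, and 0 in *ets-4(ok165)*, where 0.0948% did. The smallest adjusted p among them was 0.227 in *ets-4(uz1)*, for *rpl-8*, and 0.585 in *ets-4(ok165)*, for *rpl-42*. An unadjusted p under 0.05 was reached by 2 genes in each strain (2.53% of 79), *rpl-8* and *rps-11* in *ets-4(uz1)*, beside 19.6% of all genes, and *rpl-42* and *rpl-11.2* in *ets-4(ok165)*, beside 8.13% of all genes. After normexp and loess 11 genes reached it in *ets-4(uz1)*, all upward, beside 19.5% of all genes. Rank Products, which the study used, also called 0 in either strain at a probability of false prediction under 0.1. Of the 19441 genes and probes without a gene name that it tested, it called 2.75% in *ets-4(uz1)*, against 0.679% in *ets-4(ok165)*. With array number as a blocking factor, limma called 15.5% of all genes in *ets-4(uz1)*, against 0.332% in *ets-4(ok165)*. An unadjusted p under 0.05 was then reached by 16 ribosomal protein genes in *ets-4(uz1)* (14 upward, 20.3% of 79, beside 35.5% of all genes), and by 9 in *ets-4(ok165)* (7 downward, 11.4%, beside 20.3% of all genes). In that fit 1 ribosomal protein gene passed, *rpl-8* in *ets-4(uz1)* with an adjusted p of 0.0439, and it no longer passed when saturated spots were also left out (adjusted p = 0.0611).

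Missing the threshold does not show that the levels were equal. The intervals bound the size of a change only in ratios already fitted by lowess on each array. How much of a shift shared by these bright genes that fit took up was not tested. With median centring in place of lowess the median of the 79 genes was 0.12 in *ets-4(uz1)*, against 0.09 in *ets-4(ok165)*. The 95% interval of a gene's mean reached a median of 0.40 log2 units to each side in both strains, a factor of 1.32. It lay inside 2-fold up or down for 77 of the 79 genes in *ets-4(uz1)* and for 78 in *ets-4(ok165)*. With saturated spots left out the median half-width was 0.50 in both strains, and the interval stayed inside 2-fold for 74 genes in *ets-4(uz1)* and for 75 in *ets-4(ok165)*. Ratios fixed at 1 value by saturation can narrow these intervals, so the wider set is the safer bound for the brightest genes.

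**Figure D3:**
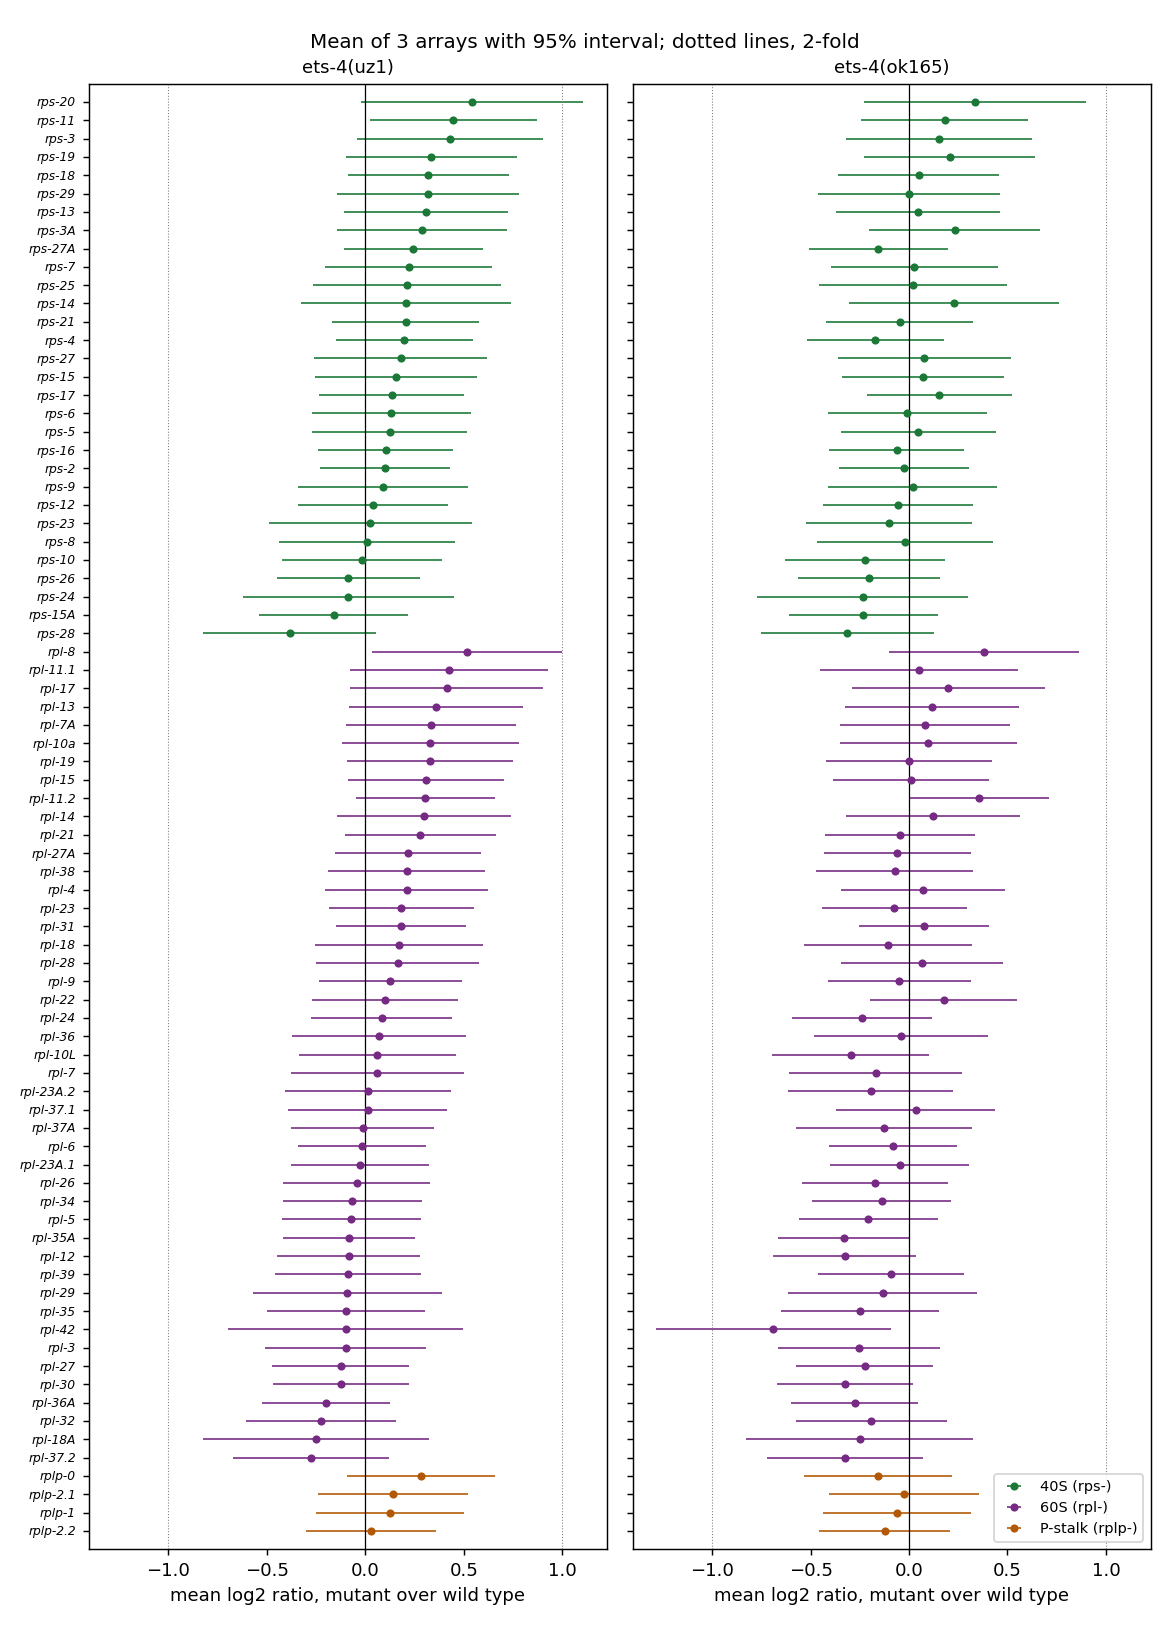
Mean log2 ratio of mutant over wild type (horizontal axis) with its 95% interval from the limma fit for each of the 79 ribosomal protein genes, *ets-4(uz1)* left and *ets-4(ok165)* right, grouped as 40S, 60S and P-stalk. Most points lie above 0 in *ets-4(uz1)* (55 of 79) and below 0 in *ets-4(ok165)* (48 of 79), and 77 of 79 intervals in each strain include 0.

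Among the 30 genes of the 40S subunit, 25 had a mean ratio above 0 in *ets-4(uz1)* larvae, against 16 in *ets-4(ok165)* larvae. Their medians were 0.17 in *ets-4(uz1)*, against 0.01 in *ets-4(ok165)*. With saturated spots left out they were 0.16 in *ets-4(uz1)*, against 0.15 in *ets-4(ok165)*. None passed the test. Without both first arrays the small-subunit medians were 0.21 in *ets-4(uz1)*, beside 0.16 in *ets-4(ok165)*.

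The highest mean of the whole list in *ets-4(uz1)* was that of a small-subunit gene. *rps-20* (Y105E8A.16, chromosome I), a protein of the 40S head, had log2 ratios of 0.37, 0.84 and 0.43 in *ets-4(uz1)* and of −0.34, 0.77 and 0.58 in *ets-4(ok165)*. It was above 0 on arrays 2 and 3 of both strains, and its 1 negative value was a spot saturated in both channels. Its first *ets-4(uz1)* value was saturated in the mutant channel only and is a lower limit. Its mean was 0.54 ± 0.26 in *ets-4(uz1)*, against 0.34 ± 0.60 in *ets-4(ok165)* (SD, n = 3 each), with a limma adjusted p of 0.271 in *ets-4(uz1)* and one of 0.747 in *ets-4(ok165)*. *rps-11* had 0.41, 0.54 and 0.40 in *ets-4(uz1)* and −0.24, 0.52 and 0.26 in *ets-4(ok165)*, where the first value was saturated in the mutant channel. *rps-11* in *ets-4(uz1)* varied less between arrays, at 0.45 ± 0.08 with an adjusted p of 0.233.

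*rps-3*, which lies where mRNA enters the 40S subunit, had 0.20, 0.58 and 0.52 in *ets-4(uz1)* and −0.34, 0.52 and 0.29 in *ets-4(ok165)*, both first values being saturated in both channels. *rps-14*, a protein of the 40S platform, had 0.20, 0.26 and 0.17 in *ets-4(uz1)* and −0.34, 0.85 and 0.19 in *ets-4(ok165)*, again saturated on both first arrays. These values show how far a pinned first value and a high second one could lie apart, and *rps-14* had the mean 0.23 ± 0.60 in *ets-4(ok165)*. *rps-3A* had 0.50, −0.08 and 0.44 in *ets-4(uz1)* and −0.06, 0.42 and 0.33 in *ets-4(ok165)*. Both first values were saturated in the mutant channel only and are lower limits, so the sign of the −0.06 is not settled.

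*rps-28* (Y41D4B.5, chromosome IV) was the lowest small-subunit gene in both strains and was never saturated. Its ratios were −0.81, −0.12 and −0.23 in *ets-4(uz1)* and −0.55, −0.23 and −0.17 in *ets-4(ok165)*, below 0 on all 6 arrays. The means were −0.38 ± 0.37 in *ets-4(uz1)*, beside −0.31 ± 0.20 in *ets-4(ok165)* (limma adjusted p = 0.310 in *ets-4(uz1)* and an adjusted p of 0.707 in *ets-4(ok165)*). *rps-27A*, which is made as a fusion with a ubiquitin-like protein, had 0.20, 0.18 and 0.35 in *ets-4(uz1)* and −0.34, −0.17 and 0.05 in *ets-4(ok165)*, both first values being saturated in both channels.

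Among the 45 genes of the 60S subunit with a probe, 26 had a mean ratio above 0 in *ets-4(uz1)* larvae, against 15 in *ets-4(ok165)* larvae. Their medians were 0.06 in *ets-4(uz1)*, against −0.08 in *ets-4(ok165)*. With saturated spots left out they were 0.01 in *ets-4(uz1)*, against −0.05 in *ets-4(ok165)*. None passed the test. The large-subunit median was below that of the small subunit in both strains and in both ways of treating saturation. On arrays 2 and 3 of both strains the small-subunit median was the higher one. It was 0.24 and 0.20 on these *ets-4(uz1)* arrays, beside 0.19 and 0.08 for the large subunit. On the *ets-4(ok165)* arrays it was 0.25 and 0.06, beside 0.06 and −0.05 for the large subunit.

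*rpl-8* (B0250.1, chromosome V) encodes a protein close to the peptidyl transferase center of the 60S subunit. It had ratios of 0.23, 0.73 and 0.59 in *ets-4(uz1)* and of −0.05, 0.81 and 0.38 in *ets-4(ok165)*, the first value being saturated in both channels in *ets-4(uz1)* and in the mutant channel in *ets-4(ok165)*. Every unsaturated value of *rpl-8* was positive. Its mean was 0.52 ± 0.26 in *ets-4(uz1)*, with a 95% interval that began at 0.035 on its lower side, and 0.38 ± 0.43 in *ets-4(ok165)*, with an interval of −0.10 to 0.86. In *ets-4(uz1)* the value lay between 0.41 and 0.81 over the 22 other ways of processing, in which the adjusted p ranged from 0.0439 to 0.635.

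The paralogues *rpl-11.1* and *rpl-11.2* encode a protein that binds the 5S rRNA. The first *ets-4(ok165)* value of each was saturated in the mutant channel only and is a lower limit. *rpl-11.1* (T22F3.4, chromosome V) had 0.56, 0.70 and 0.01 in *ets-4(uz1)* and −0.33, 0.47 and 0.01 in *ets-4(ok165)*. *rpl-11.2* (F07D10.1, chromosome X) had 0.19, 0.22 and 0.51 in *ets-4(uz1)* and 0.23, 0.39 and 0.45 in *ets-4(ok165)*, positive on all 6 arrays. The means of *rpl-11.2* were 0.31 ± 0.18 in *ets-4(uz1)*, beside 0.36 ± 0.12 in *ets-4(ok165)* (limma adjusted p = 0.317 in *ets-4(uz1)* and an adjusted p of 0.611 in *ets-4(ok165)*). It was the only gene of the list above 0 on all 3 *ets-4(ok165)* arrays.

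In the pair *rpl-37.1* and *rpl-37.2*, *rpl-37.1* had −0.29, 0.15 and 0.18 in *ets-4(uz1)* and −0.22, 0.21 and 0.11 in *ets-4(ok165)*. *rpl-37.2* had −0.58, −0.17 and −0.07 in *ets-4(uz1)* and −0.53, −0.18 and −0.26 in *ets-4(ok165)*, below 0 on all 6 arrays and without saturation. In *ets-4(uz1)* the mean of *rpl-37.2* was −0.27 ± 0.27 and that of *rpl-37.1* 0.01 ± 0.26. In the pair *rpl-23A.1* and *rpl-23A.2*, the means were −0.03 ± 0.21 and 0.02 ± 0.37 in *ets-4(uz1)*, and −0.05 ± 0.04 and −0.20 ± 0.11 in *ets-4(ok165)*. Differences between paralogues were not tested, and whether a probe also binds its paralogue's transcript was not examined.

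The lowest large-subunit value belonged to *rpl-42* (C09H10.1, chromosome II), with −0.56, 0.21 and 0.05 in *ets-4(uz1)* and −1.30, −0.16 and −0.62 in *ets-4(ok165)*. Its processed signals were 480, 530 and 925 in *ets-4(ok165)*, against 1178, 591 and 1417 in wild type on the same arrays. These were among the lowest of the list, whose mutant signals reached 298867 on the first *ets-4(ok165)* array. The mean of −0.69 ± 0.57 in *ets-4(ok165)* was −0.39 without the first array, and it ranged from −0.96 to −0.39 over the 22 other ways of processing.

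Other low genes in *ets-4(ok165)* were *rpl-35A* (−0.33 ± 0.08), *rpl-12* (−0.33 ± 0.08), *rpl-30* (−0.32 ± 0.10) and *rpl-37.2* (−0.32 ± 0.19), all below 0 on all 3 arrays (SD, n = 3). RPL-12 lies at the base of the P-stalk, and in yeast the homologue of RPL-30 binds its own transcript. Their small SDs include a first value of −0.34 for *rpl-12* and −0.33 for *rpl-35A* that was saturated in both channels, while *rpl-30* and *rpl-37.2* were unsaturated. The limma adjusted p of these 4 genes lay between 0.613 and 0.663. In *ets-4(uz1)* the low large-subunit genes beside *rpl-37.2* were *rpl-18A* (−0.25 ± 0.63), *rpl-32* (−0.22 ± 0.19) and *rpl-36A* (−0.20 ± 0.08). The probe of *rpl-18A* was also among the dimmest of the list. *rpl-36A* varied little in either strain, with −0.29, −0.15 and −0.16 in *ets-4(uz1)* and −0.32, −0.25 and −0.26 in *ets-4(ok165)*.

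The 4 P-stalk genes had means above 0 in *ets-4(uz1)* and below 0 in *ets-4(ok165)*. *rplp-0* (F25H2.10, chromosome I), the protein that anchors the stalk to the subunit, had 0.20, 0.54 and 0.12 in *ets-4(uz1)* and −0.34, −0.03 and −0.10 in *ets-4(ok165)*. *rplp-1* had 0.20, 0.11 and 0.07 in *ets-4(uz1)* and −0.34, 0.20 and −0.04 in *ets-4(ok165)*. For both genes the first values were saturated in both channels. *rplp-2.1* had 0.20, 0.09 and 0.14 in *ets-4(uz1)* and −0.34, 0.20 and 0.06 in *ets-4(ok165)*, with the same saturation. *rplp-2.2*, the unsaturated member, had −0.10, 0.06 and 0.13 in *ets-4(uz1)* and −0.07, −0.12 and −0.18 in *ets-4(ok165)*. With saturated spots left out, the medians of the 4 genes were 0.10 in *ets-4(uz1)*, against 0.01 in *ets-4(ok165)*, and the limma adjusted p of each gene in each strain was 0.377 or higher with all spots in.

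Between the strains, the ratios of the ribosomal protein genes were higher in *ets-4(uz1)* than in *ets-4(ok165)* for 72 of the 79 genes, with a median difference of 0.15 beside 0.04 over all genes kept. Both figures include first-array values fixed by saturation, which raised the differences of the brightest genes. On arrays 2 and 3 each strain had a slide of its own, so strain and slide cannot be told apart there. The test of the difference was passed by 0 of the 79 genes, at an adjusted p as well as at an unadjusted p under 0.05, where limma called 0.163% and 6.75% of all genes. With the array number as a block 0 passed at an adjusted p, beside 0.623% of all genes, and 3 reached an unadjusted p under 0.05, beside 17.7% of all genes. With median centring in place of lowess, 45 of the 79 differences were above 0, and their median was 0.03 beside 0.04 over all genes, so the excess over all genes was gone. The largest differences were 0.59 for *rpl-42*, 0.44 for *rplp-0* and 0.40 for *rps-27A*, and the limma adjusted p was 0.836 for *rpl-42*, 0.808 for *rplp-0* and 0.815 for *rps-27A*. The lowest were −0.08 for *rpl-22*, −0.07 for *rps-28* and −0.05 for *rpl-11.2*. A median 95% interval reached 0.57 to each side, and 76 of 79 lay inside 2-fold, or 67 with saturated spots left out.

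The difference varied with saturation on the first arrays. The 29 genes saturated in both channels on both first arrays had a median difference of 0.24, with 28 of them above 0, and the 26 genes never saturated had 0.09, with 23 above 0. With saturated spots left out the median over all 79 genes was 0.08, with 57 above 0, and without both first arrays it was 0.10. In that last comparison strain and slide cannot be told apart. *rplp-0* was the only member with every *ets-4(uz1)* array above 0 and every *ets-4(ok165)* array below 0, 1 of the 77 genes with all 6 values (1.30%) beside 1.73% of all genes, counted in either direction.

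Markers of cell types also differed in their ratios between the mutant strains. Of 15 germ line and oocyte markers 14 had higher ratios in *ets-4(uz1)*, with a median difference of 0.79, and of 31 sperm genes all 31 did, with a median of 0.55. The germ line medians on the single arrays were 0.78, 0.87 and −0.10 in *ets-4(uz1)* and −0.82, −0.02 and −0.09 in *ets-4(ok165)*, and the sperm medians were 0.28, 0.53 and −0.19 in *ets-4(uz1)* and −1.23, 0.27 and −0.15 in *ets-4(ok165)*. Of 10 intestine markers 2 were higher in *ets-4(uz1)*, with a median difference of −0.37, and the medians were 0.34 for 7 body wall muscle markers, −0.15 for 9 of neurons, 0.28 for 10 of the epidermis and −0.75 for 7 of the pharynx. Of all these markers 2 passed the test, both of the epidermis and in *ets-4(uz1)*, where *dpy-7* rose by 1.63 and *col-19* fell by 3.25. The part of these cell types in the ribosomal protein ratios was not tested. The study reported slower larval growth in both mutants, and the part of stage within late L4 in the marker ratios was not tested either. On the first *ets-4(ok165)* array the sperm, germ line and ribosomal protein medians were all at their lowest. The ribosomal protein median there lay at the fixed ratio of saturated spots, and the 25 unsaturated spots had a median of −0.32. A link between these medians was not tested.

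Other genes of translation did not share one direction with the ribosomal proteins. The 67 mitochondrial ribosomal protein genes, which serve translation inside mitochondria, had a median of −0.36 in *ets-4(uz1)*, against −0.16 in *ets-4(ok165)*, with only 2 of them above 0 in *ets-4(uz1)*. In *ets-4(uz1)* 52 of the 67 were below 0 on all 3 arrays and 29 had an unadjusted p under 0.05, while 0 passed after adjustment (smallest limma adjusted p = 0.0858, *mrps-26*). The list of 7 elongation genes, 6 factors and the kinase *efk-1*, had a median of 0.41 in *ets-4(uz1)*, against 0.07 in *ets-4(ok165)*, and 6 of its genes were above 0 in *ets-4(uz1)*. Saturation on the first arrays limits these medians too, since *eef-1A.1*, *eef-1G* and *eef-2* had saturated spots on both first arrays and *eef-1A.2* on 1. The translation elongation factor *eef-1A.1*, which carries aminoacyl-tRNA to the ribosome, had 0.54, 0.78 and 0.51 in *ets-4(uz1)* and −0.34, 0.79 and 0.49 in *ets-4(ok165)*, a pattern much like that of *rps-20*, its first *ets-4(ok165)* value being at the same −0.34. The 35 initiation factor genes had medians of −0.15 in *ets-4(uz1)*, against −0.10 in *ets-4(ok165)*, and the 21 aminoacyl-tRNA synthetase genes −0.08 in *ets-4(uz1)*, against −0.06 in *ets-4(ok165)*. The 31 ribosome biogenesis genes had medians of 0.03 in *ets-4(uz1)*, against −0.11 in *ets-4(ok165)*, and the 12 ribosome partners and kinases 0.00 in *ets-4(uz1)*, against −0.08 in *ets-4(ok165)*. No gene of these lists was called in either strain or between the strains, so no further gene of translation is named for a change.

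**Figure D4:**
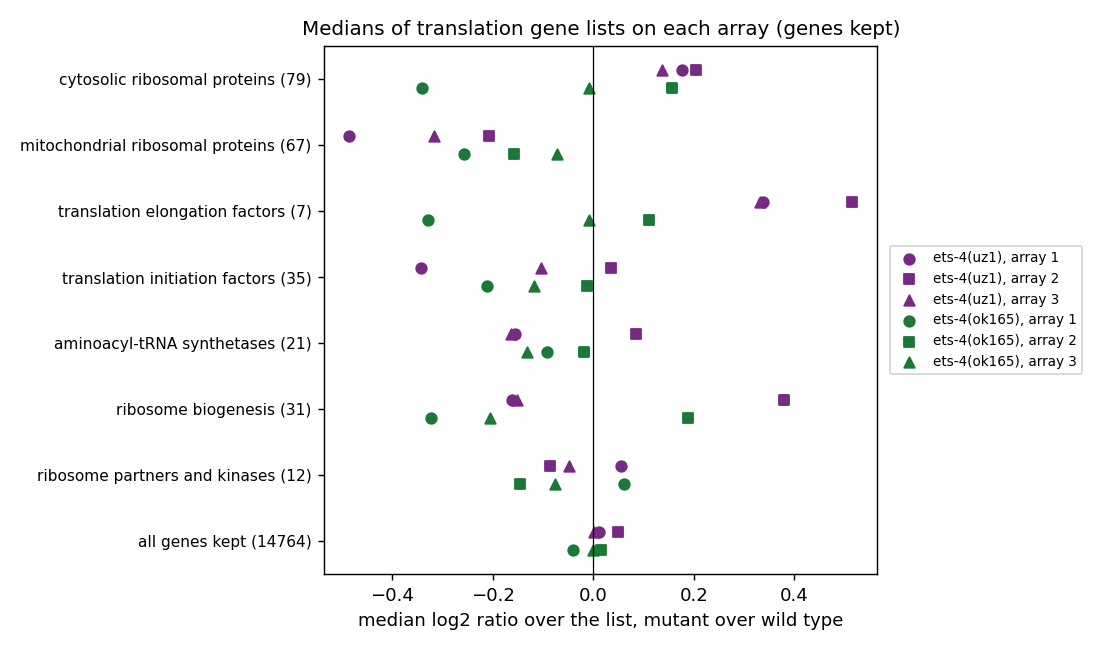
Median log2 ratio of mutant over wild type (horizontal axis) of each translation gene list on each array, with *ets-4(uz1)* in purple above *ets-4(ok165)* in green and the number of genes kept in brackets. Cytosolic ribosomal protein medians lie at 0.14 to 0.21 on the *ets-4(uz1)* arrays, and mitochondrial ribosomal protein medians lie below 0 on all 6 arrays.

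Where a gene had 2 probes, the brighter one stood for it, and the second gave a view of the same transcript. Of the 6 such genes, *rpl-17* differed most between its probes. Its brighter probe had 0.20, 0.45 and 0.60 in *ets-4(uz1)* and −0.34, 0.58 and 0.36 in *ets-4(ok165)*, saturated on both first arrays. Its dimmer, unsaturated probe had −0.08, −0.10 and −0.14 in *ets-4(uz1)* and −0.08, −0.10 and −0.26 in *ets-4(ok165)*. The probes of *rpl-17* thus had opposite signs on 5 of the 6 arrays.

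*rpl-10a* split in the same way on 5 of the 6 arrays, with 0.20, 0.44 and 0.35 on the brighter probe in *ets-4(uz1)* beside 0.10, −0.05 and −0.31 on the dimmer one. In *ets-4(ok165)* the brighter probe of *rpl-10a* had −0.34, 0.51 and 0.12 and the dimmer one 0.10, −0.14 and −0.11. For *rpl-31*, whose probes were both unsaturated, they lay close together, at 0.16, 0.14 and 0.25 beside 0.20, 0.19 and 0.34 in *ets-4(uz1)*. *rpl-13* had the same sign on every array on its 2 probes. Means of the 2 probes in place of the brighter one left the median of the 79 genes at 0.12 in *ets-4(uz1)* and put it at −0.05 in *ets-4(ok165)*. Which transcripts each probe of a pair binds was not examined.

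A few ribosomal protein genes carry symbols outside the rule and were set beside the list after their symbols were seen. *rpsa-1* had 0.17, 0.34 and 0.25 in *ets-4(uz1)* and −0.34, 0.29 and 0.09 in *ets-4(ok165)*, and *ubq-2*, a ubiquitin fusion with a large-subunit protein, had 0.20, 0.38 and 0.16 in *ets-4(uz1)* and −0.34, 0.38 and −0.09 in *ets-4(ok165)*. Both first values of *ubq-2* came from saturated spots and lay at the fixed ratios. *fau-1* was below 0 on all 6 arrays, at −0.34, −0.11 and −0.20 in *ets-4(uz1)* and −0.39, −0.21 and −0.38 in *ets-4(ok165)*. These 3 genes lay inside the range of the 79 and none was called.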

How the data were processed

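Probes were named from their sequence names through a RefSeq gene table (WBcel235), which matched 18121 of 18873 genes, and gene names only were taken from it. The authors deposited a log10 ratio of Cy5 (mutant) to Cy3 (wild type) for every spot, made in Agilent Feature Extraction (8.5.1.1 on the first arrays, 9.1.3.1 on the others, per the file headers) by background subtraction and a lowess fit per array. These ratios were multiplied by the log2 of 10. The deposited intensity values are raw mean and background signals and background-subtracted, dye-normalized signals. The deposited log2 ratios of the series table served as an alternative and correlated at 0.997 or higher with the spot ratios. Control spots and outlier flags were left out, saturated spots were kept, and a gene needed a probe that stood well above background on 3 or more arrays in Cy5 or Cy3, the brightest such probe being used.

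limma (3.58.1, R 4.3.3) fitted all arrays with 1 mean per strain (4 residual and 3.19 prior degrees of freedom) and tested each mean and the difference, *ets-4(uz1)* minus *ets-4(ok165)*, with Benjamini-Hochberg adjustment over 14764 genes and a threshold of 0.05. Rank Products used 100 permutations, 19441 features and no filter. Both were tested on simulated data with independent noise on every array, without shared deviations between arrays or values fixed by saturation. Arrays of one number deviated together (r = 0.513, 0.686 and 0.292 for numbers 1 to 3), so a fit with the number as a block was added. The ribosomal protein genes and all lists were chosen with earlier results of these data known. Genes are named that passed any test, had the 5 highest or 5 lowest means in a strain or the 3 highest or 3 lowest differences, or belong to the P-stalk or a paralogue pair, and called genes of translation outside the list, of which there were 0. Other values are ranges or illustrate probes or lists and were chosen after they were seen. Arrays hold no read depth, and their number limits the precision. The alternatives were other treatments of saturated, flagged, dim and zero-ratio spots, normexp and loess, median centring, the series table, blocks, single strains and arrays left out. Columns of each file other than these were not used.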

Additional observations from a re-analysis of the deposited data

Results flagged for a closer look

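*rplp-0*, which encodes the P0 protein of the ribosomal stalk, drew attention because its ratio was above 0 on every *ets-4(uz1)* array and below 0 on every *ets-4(ok165)* array. The values were 0.20, 0.54 and 0.12 in *ets-4(uz1)* and −0.34, −0.03 and −0.10 in *ets-4(ok165)*, a difference of 0.44 between the strains. The limma test of the difference gave an adjusted p of 0.808, and both first values were saturated in both channels. Left out of the fit, they gave a difference of 0.39. Of all genes with a value on every array, 1.73% split the strains in this way.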

How the results depend on the processing

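No ribosomal protein gene was called under any alternative run except *rpl-8* in *ets-4(uz1)* with the array number as a replicate block, where 1 gene was called at a value of 0.52, and the block changed no other call. The block left the median of the 79 genes at 0.13 in *ets-4(uz1)*, against −0.05 in *ets-4(ok165)*. Scan as a random block moved the *ets-4(uz1)* median to 0.051. Leaving out single arrays gave *ets-4(uz1)* medians of 0.0697 to 0.152, the lowest without array 2, *ets-4(ok165)* medians of −0.15 to 0.08, the highest without array 1, and differences between the strains of 0.04 to 0.25. The sign of the *ets-4(ok165)* median was positive with saturated spots left out (0.05), with normexp and loess (0.04), with median centring (0.09) and without the first array, and these alternatives gave differences between the strains of 0.08, 0.10, 0.03 and 0.04. The *ets-4(uz1)* median and the difference stayed above 0 in every alternative run. Of 42 named values in a strain or between strains, 27 kept their sign in all alternatives and 15 did not, and none of those 15 was called. The alternatives that left out spots scaled up in 1 channel only, saturated spots together with the block, or both first arrays were chosen after seeing the data. Saturation limits the brightest genes on the first arrays.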
